A study of Homo sapiens with 6 samples.

Results

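Developmental transcription factors outside the HOX clusters were followed in a lymphoma line with wild-type EZH2 and in a line that expresses a mutant form. The set held 58 genes, named by symbol with no threshold on expression, of 47616 gene symbols that could be joined across the libraries. Each symbol was looked up in the rows of the per-library expression tables and in the authors' deposited table of the comparison between the lines.

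These genes encode sequence-specific regulators that set up organs and cell types in the embryo: GATA and PAX factors, SOX, T-box and forkhead proteins, homeobox proteins of the LIM, NK, sine oculis and Iroquois classes, basic helix-loop-helix proteins and a runt domain factor. In differentiated cells most of them are textbook targets of Polycomb repressive complexes. EZH2 is the catalytic subunit of one of these complexes and methylates histone H3, and the Y646F substitution, known from germinal centre B cell lymphomas, raises the trimethylated form of the mark. Polycomb targets typically have promoters rich in CpG dinucleotides. B cell identity rests on PAX5 and EBF1, which are not among the members.

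Messenger RNA of 2 lymphoma B cell lines was sequenced, with 3 biological replicates per line. LY19WT carries wild-type EZH2, and LY19Y646F constitutively expresses EZH2-Y646F from a CMV promoter. Libraries of both lines came from untreated cells at passages 10 to 15. The labels do not say whether replicates were separate cultures, nor how many clones a line holds, so the p-values given here measure the spread between these libraries. Expression is in FPKM, fragment numbers scaled by transcript length and by the total of mapped fragments, as the authors deposited it. Since FPKM is scaled by length, levels of different genes can be set side by side.

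The lines differed in much besides the members. The EZH2 row held 70.6 ± 8.73 FPKM in LY19WT and 81.4 ± 11.7 FPKM in LY19Y646F (SD, n = 3 each), a log2 difference of 0.20 (SE 0.15) with a limma adjusted p of 0.38. The tables do not separate mutant from wild-type transcripts, so this level does not check the labels. Rows naming the kappa light chain gene IGKC summed to 46.4 ± 7.50 FPKM in LY19WT and 4677 ± 342 FPKM in LY19Y646F, and rows naming the lambda segment IGLV1-40 to 374 ± 68.2 FPKM against 0, 0.0803 and 0 FPKM. Of 10 B cell markers, 8 were found in all tables, and PAX5 and CD74 could not be read. Of the 8 found, 5 reached 1 FPKM in every LY19WT library and 8 in every LY19Y646F library. BLNK (23.5, 0 and 23.6 FPKM) and CD37 (5.22, 0 and 4.02 FPKM) missed this in LY19WT only by a listed 0 in replicate 2. MS4A1, which encodes CD20, stood at 0.0688 to 0.140 FPKM in LY19WT and 83.1 to 118 FPKM in LY19Y646F. EBF1 went the other way, at 42.5 to 44.6 FPKM in LY19WT and 4.89 to 5.61 FPKM in LY19Y646F. Summed levels of the other marker lists ran from 44.1 to 47.5 against 59.9 to 337 FPKM for 11 T cell genes, from 624.0 to 1614 against 594 to 2507 for 10 myeloid genes, from 2.73 to 3.22 against 2.52 to 4.98 for 12 erythroid and megakaryocyte genes, from 0 to 0.0319 against 0.0706 to 0.294 for 6 epithelial genes, from 59.2 to 81.5 against 64.3 to 77.5 for 7 mesenchymal genes and from 18.8 to 45.3 against 0.498 to 73.4 for 6 neural genes. The CD68, LCK, TRAC, PDGFRA and TUBB3 rows in these sums also name other genes. CD8B, ELANE, S100A8, S100A9, HBB, PF4, KRT19, KRT5 and GFAP were listed at 0 in all 6 libraries, as were CD3D, CD3E and CD3G in LY19WT. CD3E reached 0.736 to 1.06 FPKM in LY19Y646F. Other genes of these lists were higher in LY19WT: CD247 stood at 28.045 to 29.5 FPKM there against 0.305 to 0.690 FPKM, LYZ at 10.1 to 13.4 against 0.0916 to 0.263 FPKM, and CD33 at 3.33 to 8.69 against 0.151 to 0.328 FPKM. The part of these differences in the results below was not tested. Each EZH2 state is represented by a single line, so the mutant and other differences between the lines cannot be told apart. In LY19WT replicate 3 the 10 highest rows took 27.5% of the summed FPKM, against 5.71% to 9.38% in the other libraries.

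The RefSeq promoters of 4 members are shown because the results turn on them: SIX2 was the only member expressed in a single line by the rule given below, MSX1 was 25.3-fold lower in LY19Y646F, and DLX1 and DLX2 are neighbours whose values differed between the lines in opposite directions. SIX2 was selected by the rule on expression in a single line, the other 3 after their values were seen. Each sequence covers the 250 bases before the annotated start, on the gene's strand, with CG dinucleotides in capitals. Coordinates in this paragraph are on GRCh38.p14: chr2:45009453-45009702 on the minus strand for SIX2, chr4:4859415-4859664 on the plus strand for MSX1, chr2:172085257-172085506 on the plus strand for DLX1 and chr2:172102901-172103150 on the minus strand for DLX2.
SIX2: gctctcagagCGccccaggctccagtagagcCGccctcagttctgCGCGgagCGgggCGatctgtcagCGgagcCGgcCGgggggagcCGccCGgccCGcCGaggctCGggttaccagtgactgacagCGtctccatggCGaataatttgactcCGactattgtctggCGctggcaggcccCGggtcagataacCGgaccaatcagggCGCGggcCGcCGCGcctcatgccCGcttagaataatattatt
MSX1: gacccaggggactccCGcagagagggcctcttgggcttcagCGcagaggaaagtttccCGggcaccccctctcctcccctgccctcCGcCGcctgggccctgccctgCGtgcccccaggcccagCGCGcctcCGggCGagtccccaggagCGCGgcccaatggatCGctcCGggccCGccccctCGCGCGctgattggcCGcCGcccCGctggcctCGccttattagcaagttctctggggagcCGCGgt
DLX1: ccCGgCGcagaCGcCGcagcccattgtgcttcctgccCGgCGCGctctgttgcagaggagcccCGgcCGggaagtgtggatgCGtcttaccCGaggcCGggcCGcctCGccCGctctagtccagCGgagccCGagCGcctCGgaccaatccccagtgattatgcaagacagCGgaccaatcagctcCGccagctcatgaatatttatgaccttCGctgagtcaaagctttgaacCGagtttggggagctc
DLX2: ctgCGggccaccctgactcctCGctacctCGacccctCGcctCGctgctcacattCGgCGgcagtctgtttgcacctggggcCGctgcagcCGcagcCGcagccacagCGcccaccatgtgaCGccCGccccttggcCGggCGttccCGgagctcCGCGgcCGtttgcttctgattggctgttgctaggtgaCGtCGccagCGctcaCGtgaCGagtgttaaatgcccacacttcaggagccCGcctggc
The SIX2 stretch holds 26 CG dinucleotides, MSX1 24, DLX1 23 and DLX2 25. Their ratios of observed to expected CpG are 0.967, 0.719, 0.914 and 0.886, and their GC contents 65.6%, 74.0%, 63.6% and 68.0%. The CCAAT box, a common proximal promoter motif searched as CCAAT or its complement ATTGG, occurs in each: once on the gene's strand in SIX2, on both strands in MSX1, at 2 places on the gene's strand in DLX1, and as ATTGG in DLX2. A match to these letters is a description of the sequence and not a bound site.

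A CpG-rich promoter was common to most members. RefSeq entries were matched for 39 of the 58 members, with 60 promoters among them. Counting a window of 300 bases (250 before to 50 after the start) as CpG-rich at a GC content of at least 50% and an observed to expected CpG ratio of at least 0.6, 71.7% of the members' promoters qualified, against 46.9% of all 35116 promoters in the table. By gene, 35 of 39 members (89.7%) had at least 1 such promoter, against 50.2% of 27305 genes. The median ratio was 0.754 for the members and 0.579 for all promoters. CCAAT or ATTGG occurred in 30 of the members' 60 windows and in 34.6% of all windows. The sequence feature was common at both ends of the range of levels. Of the 23 promoters of members listed at 0 in all 6 libraries, 78.3% were CpG-rich. So were all 4 promoters of the matched members that reached 1 FPKM in a library (SIX2, DLX1, DLX2 and FOXC1). Members between these levels were not counted apart, and whether the feature separates members with RNA was not tested. SOX11 and IRX5 had no entry in the table.

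**Figure D1:**
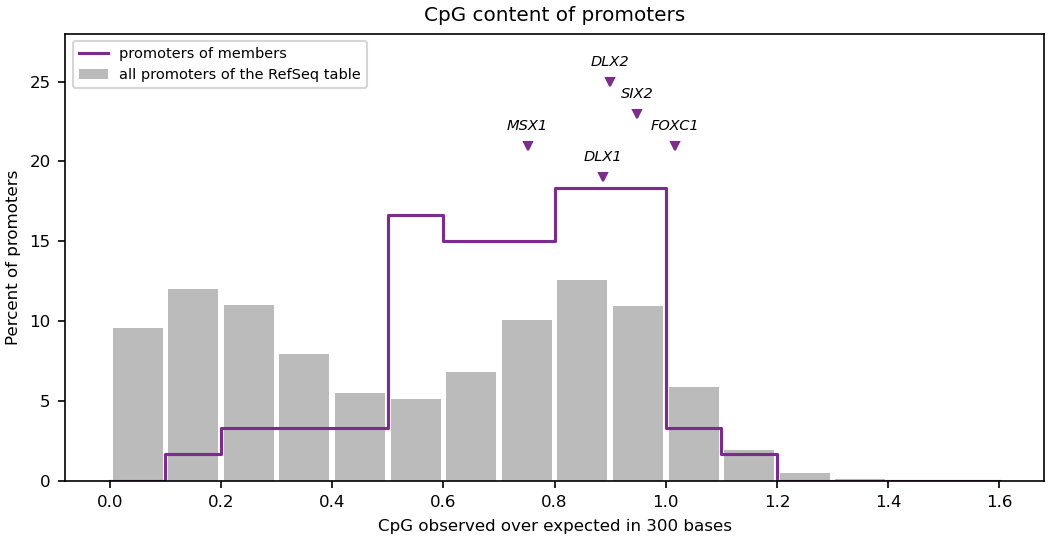
CpG observed over expected in the 300-base window around the start (x axis) against the percent of promoters (y axis), for the 60 promoters of members (line) and all 35116 RefSeq promoters (grey bars); triangles mark the ratio of 5 members and their height carries no value. The members' median of 0.754 lies to the right of the 0.579 of all promoters, and the 5 marked members lie in the upper peak.

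Most members had little or no RNA in either line. Of the 58, 31 were listed at 0 in all 6 libraries, against 20.9% of 14916 protein-coding genes. Calling a gene silent when it stayed under 0.1 FPKM in every library, 45 members were silent in both lines, where 38.7% of protein-coding genes were. The 14 silent members with a value above 0 somewhere peaked at 0.0958 FPKM (NEUROG2 in LY19WT replicate 2), and 11 of the 27 members above 0 in any library were so in only 1 or 2 libraries. Not a single member reached 1 FPKM in all 6 libraries, while 33.2% of protein-coding genes did. A listed 0 is not proof of absence: of 368 tested genes at 0 throughout LY19WT, 244 are in the authors' deposited table and 105 of those reach 1 FPKM there, and for LY19Y646F the numbers are 435, 273 and 117. Of the 31 members listed at 0 throughout, 0 were found in that table, whose higher value per gene is never under 0.189 FPKM. It was searched by whole row name, so a member merged with another gene there would be missed. SOX11 and PAX6, whose per-library rows name a second gene, were not found there either. Absence from that table is therefore no evidence of silence.

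Calling a gene expressed in a single line when it reached 1 FPKM in each library of that line and stayed under 0.1 FPKM in each of the other, 1 member was expressed in LY19Y646F alone (SIX2, where 1.25% of protein-coding genes were) and 0 in LY19WT alone (1.67%). From 0.5 FPKM the counts were 3 (SIX2, RUNX2 and SOX11) and 1 (MSX1). Of the other 12 members, which met none of these definitions, 5 more reached 1 FPKM in some library: DLX1, DLX2, FOXC1, IRX5 and SOX11. The summed FPKM of all members was 5.58, 4.96 and 3.64 in LY19WT and 26.7, 12.8 and 13.2 in LY19Y646F. Without SIX2 the LY19Y646F sums were 5.05, 3.56 and 3.53 FPKM, so the lines then overlapped. In bulk RNA, fewer cells with a transcript and less RNA per cell cannot be told apart.

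**Figure D2:**
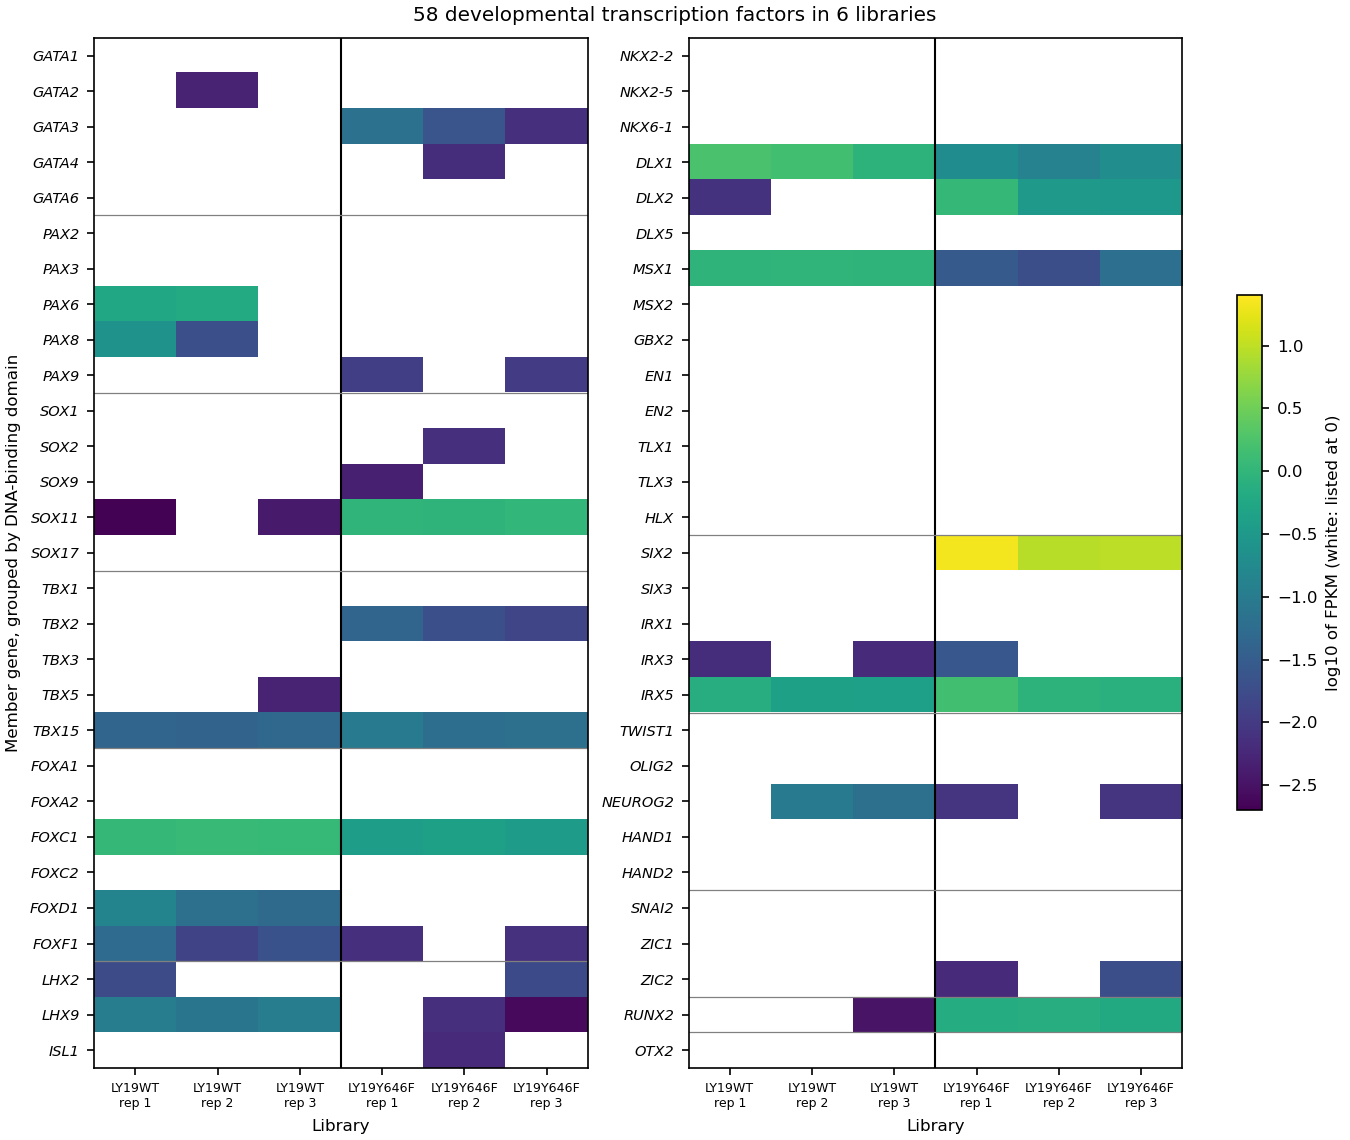
Every member (rows, grouped by family) in the 6 libraries (columns), coloured by the log10 of FPKM, with white for a gene listed at 0. The 31 rows that are white throughout are the members listed at 0 in all libraries, and SIX2 in LY19Y646F is the brightest cell.

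The test of the difference between the lines was limma on log2(FPKM + 1), fitted to the 10705 genes that averaged 0.5 FPKM or more, which understates the fold of low genes. It called 33.3% of tested genes at an adjusted p under 0.05, 16.7% higher and 16.5% lower in LY19Y646F. Only 4 members passed the filter: SIX2 was called higher, DLX1 and FOXC1 lower, and IRX5 was not called. SIX2, DLX1 and FOXC1 averaged 0, 0.177 and 0.392 FPKM in their lower line. They passed the filter only through the line where they were higher. The median log2 difference of the 4 was -0.10, against -0.03 for all tested genes. SOX11 and MSX1 lay just under the filter, with means of 0.486 and 0.485 FPKM over the 6 libraries. With any LY19WT library left out SOX11 was tested and called, so that 2 members were higher. With any LY19Y646F library left out MSX1 was tested and called, so that 3 were lower. Leaving out a library of the line where the gene is low raises its mean over the filter. These entries therefore follow from the filter and add no support. A fit with no filter, on 24709 genes, called 18.2% of them, 9.27% higher and 8.89% lower. It tested 27 members, of which 3 rose (SIX2, SOX11, RUNX2) and 4 fell (DLX1, FOXC1, MSX1, LHX9). Its limma adjusted p was 0.0021 for SIX2, 0.025 for DLX1 and 0.0499 for FOXC1, the last barely under the threshold of 0.05. Of the 27 members above 0 in any library, 8 had no overlap between the 3 libraries per line and were higher in LY19Y646F. The background was 24.7% of the 11796 protein-coding genes above 0. A further 6 members had no overlap and were higher in LY19WT (background 21.4%). The exact permutation p of each member without overlap is 0.10, the smallest that 3 libraries against 3 can give.

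Among the sine oculis and Iroquois homeobox genes, SIX2 held the highest level of the whole set. SIX2 maintains nephron progenitors in the developing kidney. Its row (hg19 chr2:45232300-45236569) was listed at 0 in each LY19WT library and held 21.6, 9.28 and 9.63 FPKM in LY19Y646F replicates 1 to 3. Replicate 1 stood above the other 2 LY19Y646F libraries, and its Cufflinks 95% interval of 20.4 to 22.9 FPKM did not reach them. The LY19Y646F mean was 13.5 ± 7.02 FPKM (SD, n = 3), or 9.45 FPKM without replicate 1. SIX2 rose by 3.76 on the log2(FPKM + 1) scale (SE 0.34), with a limma adjusted p of 0.00084. That difference ranked 113 among the 1793 genes called higher, and 23.4% of protein-coding genes had a higher LY19Y646F mean. The authors' deposited table gives 0 and 12.7 FPKM.

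SIX3, an eye and forebrain factor whose row lies 59.1 kb from SIX2, was listed at 0 in all 6 libraries. In LY19WT replicate 1 an unnamed assembled row of 187.6 FPKM spans the SIX3 locus. Of the Iroquois genes, which pattern the neural tube and the heart, IRX5 (chr16:54964774-54968397) measured 0.722, 0.432 and 0.414 FPKM in LY19WT against 1.46, 0.882 and 0.804 FPKM in LY19Y646F. Replicate 1 was the highest library of each line, and the lowest LY19Y646F library stood above the highest of LY19WT. LY19WT averaged 0.523 ± 0.173 and LY19Y646F 1.05 ± 0.357 FPKM (SD, n = 3 each), and the log2 difference of 0.42 (SE 0.18) did not pass (limma adjusted p = 0.15), although it did with library weights (0.028). IRX3, 644 kb from IRX5, stayed at or under 0.0254 FPKM, and IRX1 was listed at 0 throughout.

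Among the NK-like homeobox genes, the values of a pair of neighbours differed between the lines in opposite directions, but only the difference of DLX1 passed. DLX1 and DLX2 lie 9.76 kb apart and act together in forebrain interneurons and in the jaw. DLX1 (chr2:172949468-172954405) measured 1.68, 1.42 and 0.882 FPKM in LY19WT against 0.195, 0.131 and 0.204 FPKM in LY19Y646F. The lines did not overlap, and the LY19WT mean of 1.33 ± 0.406 FPKM was 7.50-fold the LY19Y646F mean of 0.177 ± 0.0397 FPKM (SD, n = 3 each). DLX1 fell by 0.97 on the log2(FPKM + 1) scale (SE 0.18), with a limma adjusted p of 0.010.

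DLX2 (chr2:172964167-172967628) measured 0.00801, 0 and 0 FPKM in LY19WT against 1.06, 0.321 and 0.312 FPKM in LY19Y646F. All LY19Y646F libraries were above those of LY19WT, and replicate 1 was again the highest. The LY19Y646F mean of 0.564 ± 0.428 FPKM (SD, n = 3) dropped to 0.317 FPKM without that library. In the fit with no filter its log2 difference of 0.61 (SE 0.19) did not pass (limma adjusted p = 0.099). The authors' deposited table has the same directions, with 1.43 and 0.213 FPKM for DLX1 and 0.00300 and 0.624 FPKM for DLX2. DLX5, the third DLX gene of the set, was listed at 0 in every library, as was its neighbour DLX6.

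MSX1, a homeobox repressor of tooth, palate and limb development, varied little within LY19WT and fell. Its row (chr4:4861393-4865663) held 0.910, 0.959 and 0.928 FPKM in LY19WT against 0.0294, 0.0189 and 0.0622 FPKM in LY19Y646F. The LY19WT mean of 0.932 ± 0.0244 FPKM was 25.3-fold the LY19Y646F mean of 0.0368 ± 0.0226 FPKM (SD, n = 3 each), which was 0.0242 FPKM without replicate 3. The lower Cufflinks limit was above 0 in the LY19WT libraries and at 0 in those of LY19Y646F. In the fit with no filter MSX1 fell by 0.90 (SE 0.091) with a limma adjusted p of 0.0027. The authors' deposited table gives 1.12 and 0.0593 FPKM. Its paralog MSX2 and NKX2-2, NKX2-5, NKX6-1, GBX2, EN1, EN2, TLX1, TLX3 and HLX were likewise listed at 0 in all 6 libraries.

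**Figure D3:**
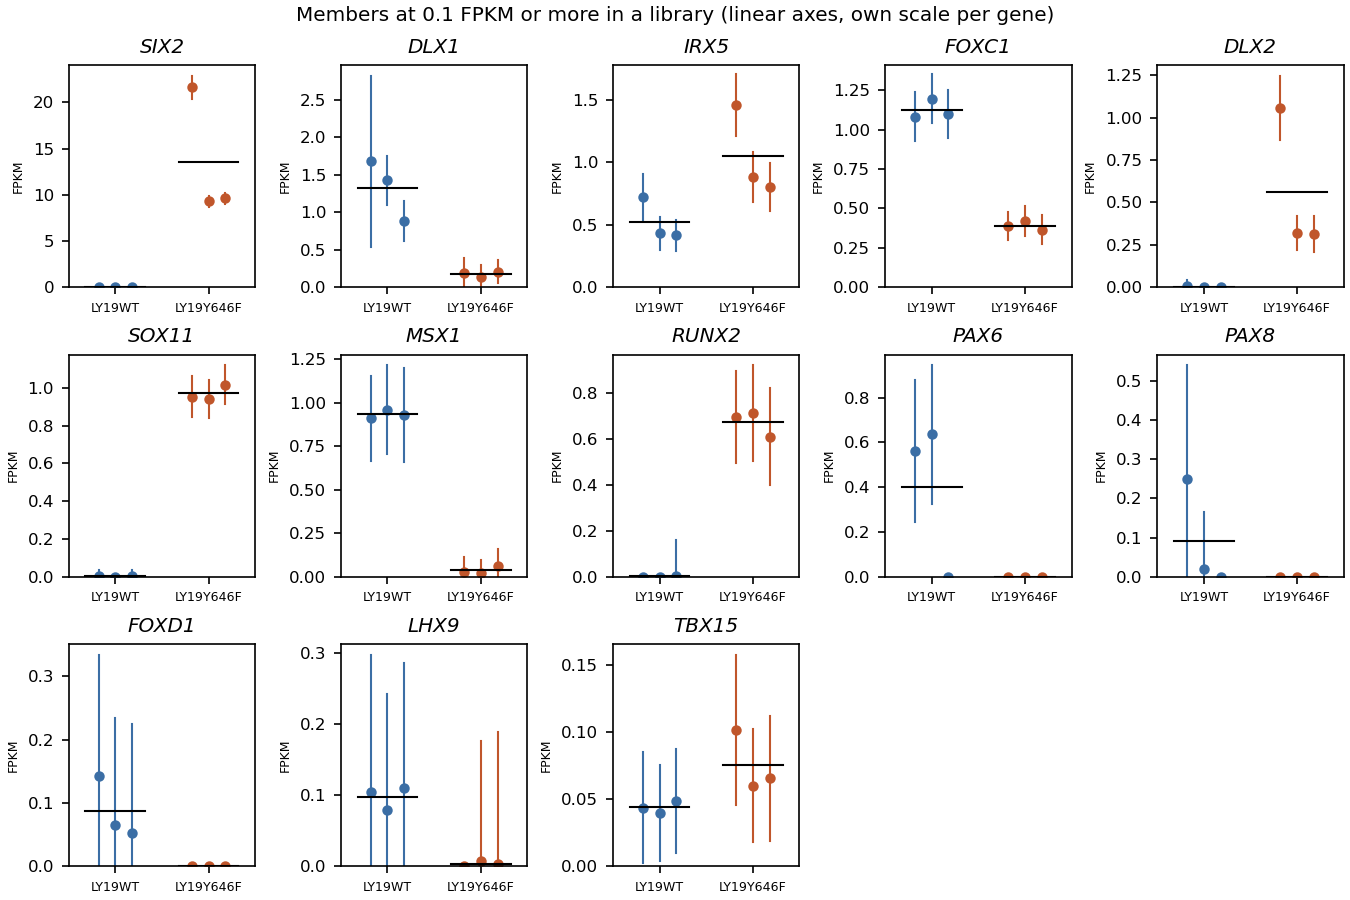
FPKM (y axis, linear, own scale per gene) of the 13 members that reached 0.1 FPKM in a library, with points for replicates 1 to 3 of each line, vertical lines for the Cufflinks 95% interval and horizontal lines for the mean. SIX2 reaches 21.6 FPKM and the other 12 members stay at or under 1.68 FPKM; PAX6 and PAX8 rest on 2 LY19WT libraries each.

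Of the SOX genes in the set, which encode HMG box proteins, SOX11 alone had RNA above trace levels. SOX11 acts in neural development and is a diagnostic marker of mantle cell lymphoma. Its row (chr2:5832799-5848227), which also names the non-coding gene AC010729.1, held 0.00212, 0 and 0.00398 FPKM in LY19WT against 0.954, 0.942 and 1.02 FPKM in LY19Y646F. The LY19Y646F libraries lay close together at 0.971 ± 0.0403 FPKM (SD, n = 3), and the LY19WT mean was 0.00203 FPKM, or 0.00106 FPKM without replicate 3. In the fit with no filter SOX11 rose by 0.98 (SE 0.088) with a limma adjusted p of 0.0019. The fragments of the 2 genes in the row cannot be told apart. SOX1 and SOX17 were listed at 0 throughout, and SOX2 and SOX9 were above 0 in a single LY19Y646F library each.

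RUNX2, the runt domain factor that drives bone formation, showed the same direction. Its row (chr6:45295894-45632086) held 0, 0 and 0.00326 FPKM in LY19WT against 0.692, 0.710 and 0.609 FPKM in LY19Y646F. The LY19Y646F mean was 0.670 ± 0.0542 FPKM (SD, n = 3), and in the fit with no filter RUNX2 rose by 0.74 (SE 0.061) with a limma adjusted p of 0.0014. SUPT3H, a transcription cofactor gene whose row overlaps RUNX2, measured 3.17 to 3.41 FPKM in LY19WT and 2.65 to 4.07 FPKM in LY19Y646F, so it did not separate the lines. The authors' deposited table gives RUNX2 0.00288 and 0.654 FPKM.

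The forkhead members with RNA had lower values in LY19Y646F, and FOXC1 passed the test. FOXC1, a factor of eye, heart and mesoderm development, measured 1.08, 1.20 and 1.10 FPKM in LY19WT against 0.388, 0.421 and 0.366 FPKM in LY19Y646F (chr6:1610681-1614127). Each line was tight and the lines did not overlap, with means of 1.13 ± 0.0618 and 0.392 ± 0.0274 FPKM (SD, n = 3 each), a ratio of 2.88. FOXC1 fell by 0.61 on the log2(FPKM + 1) scale (SE 0.12), with a limma adjusted p of 0.012. With quantile scaling the difference was -0.35 and did not pass (adjusted p = 0.090). Both lines kept RNA of this gene, with a lower Cufflinks limit above 0 in all 6 libraries.

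FOXD1, a marker of kidney stroma, was low in LY19WT at 0.143, 0.0648 and 0.0526 FPKM and listed at 0 in LY19Y646F. It did not pass in the fit with no filter (limma adjusted p = 0.072). The row of the non-coding gene RP11-79P5.2, which overlaps FOXD1, held 1.43, 2.004 and 1.75 FPKM in LY19WT and 0 in LY19Y646F. FOXF1, a mesenchymal factor of the lung and gut, measured 0.0533, 0.0139 and 0.0215 FPKM in LY19WT against 0.00719, 0 and 0.00761 FPKM in LY19Y646F. FOXA1, FOXA2 and FOXC2 were listed at 0 in all 6 libraries.

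Values of the paired box genes PAX6 and PAX8 differed with the row or table they were read from. PAX6, the master regulator of eye development, was listed at 0.560, 0.635 and 0 FPKM in LY19WT and at 0 in LY19Y646F. In the 2 LY19WT libraries with a value, its row, which also names Z83307.3, begins 1401 and 1400 bases further left than in the other 4. The PAX6 rows overlap those of ELP4, at 15.2 to 17.3 FPKM in all 6 libraries, and in LY19WT that of RCN1, at 43.6 to 51.7 FPKM there. RCN1 stood at 0.123 to 0.136 FPKM in LY19Y646F. The LY19WT mean of 0.398 FPKM for PAX6 was 0.597 FPKM without replicate 3.

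PAX8, a thyroid and kidney factor, was listed at 0.250, 0.0200 and 0 FPKM in LY19WT and at 0 in LY19Y646F, a mean of 0.0902 FPKM that was 0.0100 FPKM without replicate 1. The authors' deposited table has the opposite direction, with 0.113 FPKM in LY19WT and 0.839 FPKM in LY19Y646F. PAX8 was the only 1 of the 9 members found in that table for which the directions differed. At the same locus the row of the antisense gene PAX8-AS1, which also names RP11-65I12.1, held 0.0134, 0.481 and 0.168 FPKM in LY19WT against 15.7, 15.6 and 14.2 FPKM in LY19Y646F. The LY19Y646F tables also list 25 unnamed assembled rows of 0.439 to 3.44 FPKM over PAX8. The library kit was stranded, but whether counting used the strand is not given in the sources used here, so fragments of PAX8 and of its antisense partner cannot be told apart. PAX2 and PAX3 were listed at 0 throughout, and PAX9 stayed under 0.1 FPKM.

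Rows of other genes, or unnamed rows, at 0.2 FPKM or more lay over 10 member loci, 4 of them of members listed at 0 throughout (GATA1, PAX2, SIX3 and TBX1). HDAC6 overlapped GATA1 in LY19WT replicate 1 at 14.4 FPKM, and a row naming MRPL43 and RP11-108L7.4 overlapped PAX2 in LY19Y646F replicate 1 at 36.5 FPKM. A row naming C22orf29 and GNB1L overlapped TBX1 in all 6 libraries at 5.05 to 21.4 FPKM. NEUROG2, a neurogenic factor, shared its locus with RP11-402J6.1 in the 2 LY19WT libraries where it was highest.

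The remaining members with RNA stayed near the limit of what the tables list. LHX9, a LIM homeobox gene of gonad and brain development, measured 0.104, 0.0786 and 0.110 FPKM in LY19WT against 0, 0.00715 and 0.00250 FPKM in LY19Y646F. It fell by 0.13 in the fit with no filter (limma adjusted p = 0.0038), but its lower Cufflinks limit was 0 in every library. TBX15, a T-box gene of skeletal development, was the weakest member with a lower limit above 0 in all 6 libraries, at 0.0437, 0.0399 and 0.0486 FPKM in LY19WT against 0.102, 0.0600 and 0.0656 FPKM in LY19Y646F, and it did not pass (adjusted p = 0.21). GATA3, a T cell factor, was listed at 0 in LY19WT and at 0.0709, 0.0237 and 0.00734 FPKM in LY19Y646F. TBX2 was likewise 0 in LY19WT and 0.0434, 0.0197 and 0.0144 FPKM in LY19Y646F. GATA1, the erythroid factor, was listed at 0 in every library, and all 5 GATA genes were silent, as were the 5 basic helix-loop-helix genes TWIST1, OLIG2, NEUROG2, HAND1 and HAND2 and the zinc finger genes SNAI2, ZIC1 and ZIC2. TBX1, TBX3 and OTX2 were listed at 0 throughout, and TBX5, LHX2 and ISL1 were above 0 in only 1 or 2 libraries each and silent.

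Several members were highest in the same library. Of the 11 members above 0 in every LY19Y646F library, 6 (GATA3, TBX2, TBX15, SIX2, DLX2 and IRX5) were highest in replicate 1, or 54.5%, where 36.8% of 8142 protein-coding genes were. In LY19WT replicate 1 was highest for 4 of 8 members, against 37.7% of 7970 genes. The part of a library in these levels was not tested, and SIX2, DLX1 and FOXC1 remained called without LY19Y646F replicate 1 (adjusted p of 0.00028, 0.025 and 0.020) and without LY19WT replicate 3 (0.0063, 0.0089 and 0.037).

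Neighbouring genes of 1 family could differ in whether they had RNA. FOXC2, listed at 0 throughout, lies 7.43 kb from FOXL1, a gut mesenchyme factor outside the set, which measured 0.588, 0.557 and 1.00 FPKM in LY19WT against 5.15, 5.00 and 1.95 FPKM in LY19Y646F. On the other side FOXF1 lies 52.8 kb away. FOXF2, which lies 215 kb from FOXC1, was listed at 0 in all 6 libraries.

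**Figure D4:**
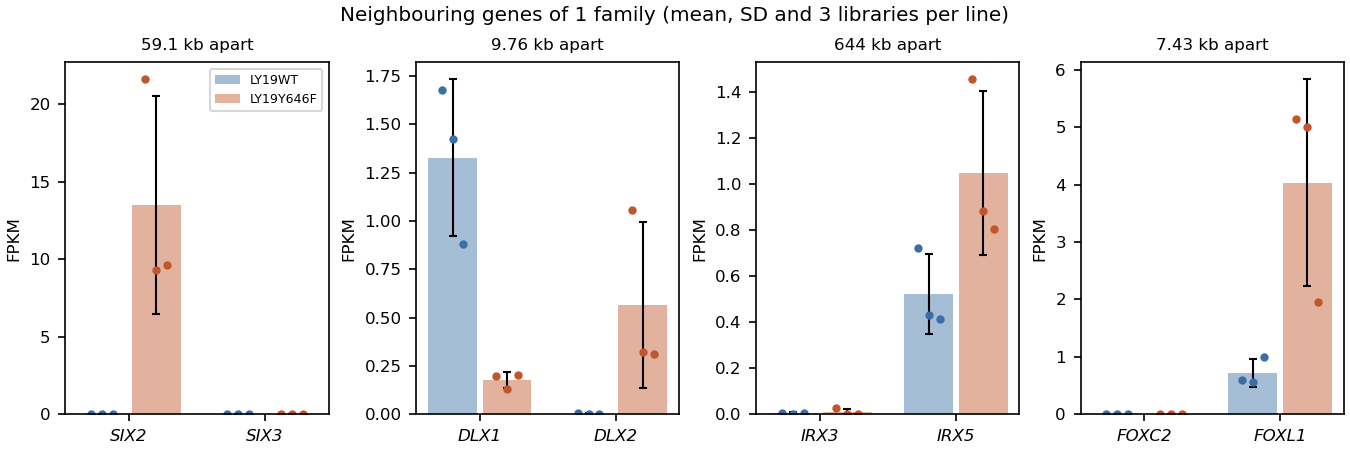
FPKM (y axis, from 0) of neighbouring genes of 1 family, with bars for the mean of each line, error bars for the SD of 3 libraries and points for the libraries. In each panel the neighbours differ: SIX2 against SIX3, DLX1 against DLX2, IRX5 against IRX3, and FOXL1 against FOXC2.

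The silence of the set was shared by its wider families. Of 111 other genes of the same families, 69 (68.3% of those that could be joined) were silent in both lines. The 13 expressed in both lines were FOXJ2, FOXJ3, FOXK1, FOXM1, FOXN2, FOXO1, FOXO3, FOXP1, FOXP4, RUNX1, SOX4, SOX12 and MGA. Of 23 tested, 4 were higher in LY19Y646F and 7 lower, where 16.7% and 16.5% of all tested genes were, with a median log2 difference of -0.43 against -0.03 for all tested genes. RUNX3, the runt factor of T and B lymphocytes, rose from 0, 0 and 0.00926 FPKM to 22.03, 17.1 and 15.0 FPKM, while RUNX1, essential for blood stem cells, fell from 15.5 ± 0.771 to 8.51 ± 0.879 FPKM (SD, n = 3 each), so the 3 runt genes did not share a direction. SOX4, which supports early B cell development, fell from 41.0 ± 2.21 to 6.83 ± 0.181 FPKM, opposite to SOX11. TBX20, a heart factor, was listed at 0 in LY19WT and held 1.66, 1.72 and 1.67 FPKM in LY19Y646F.

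FOXM1, a factor of dividing cells, fell from 64.9 ± 9.21 to 30.9 ± 0.668 FPKM, and FOXO4 from 2.19 ± 0.242 to 1.10 ± 0.109 FPKM (SD, n = 3 each). FOXL1 rose by 1.49 (SE 0.34, limma adjusted p = 0.022), a call lost with the replicate number as a block (adjusted p = 0.066). That fit called 3 of the 23 higher and 8 lower: OTX1 was also lost (0.076), and FOXP1 (0.034) and FOXK1 (0.036) were gained.

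Genes of proteins that work with these families changed in both directions. Of 33 partner genes, 13 were expressed in both lines, 2 in LY19Y646F alone and 10 were silent. Of 19 tested, 4 were higher and 6 lower in LY19Y646F, where 16.7% and 16.5% of all tested genes were, and the median log2 difference was -0.51 against -0.03. With the replicate number as a block 4 were higher and 9 lower: EYA3 was no longer called (adjusted p = 0.068), and LMO2 (0.013), AES (0.014), TCF3 (0.016) and ID3 (0.035) were. The inhibitors of basic helix-loop-helix factors diverged: ID4 rose from 0.0134 ± 0.00503 to 21.9 ± 2.01 FPKM and ID1 from 0.122 ± 0.0203 to 20.3 ± 16.3 FPKM (SD, n = 3 each; 39.1, 12.2 and 9.68 FPKM by library, and a mean of 10.96 without replicate 1), while ID2 fell from 241 ± 46.4 to 53.8 ± 6.95 FPKM. The E proteins TCF4 and TCF12, partners of those factors, fell from 85.4 ± 9.55 to 3.33 ± 0.351 and from 41.4 ± 1.94 to 16.2 ± 2.30 FPKM. Of the Groucho corepressors, which runt, sine oculis and forkhead proteins recruit, TLE3 rose from 0.00113 to 16.5 ± 5.77 FPKM and TLE4 fell from 51.5 ± 6.37 to 12.1 ± 1.74 FPKM. LMO4, a LIM-only partner, fell from 26.003 ± 1.24 to 4.01 ± 0.217 FPKM.

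**Figure D5:**
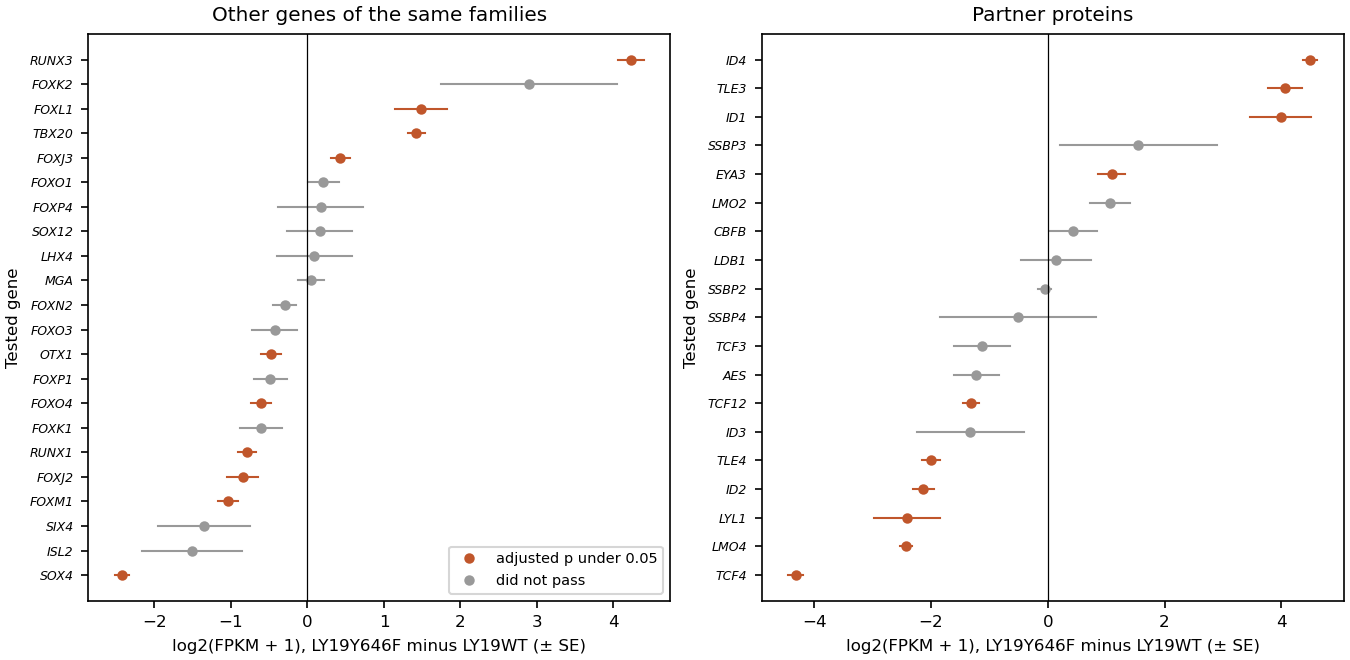
Difference of log2(FPKM + 1), LY19Y646F minus LY19WT (x axis, with SE), for the tested other genes of the same families (left, all but 1 of the 23) and the 19 tested partner genes (right), with orange for an adjusted p under 0.05. RUNX3 and ID4 lie at the top, and SOX4 and TCF4 at the bottom, of their lists.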

How the data were processed

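Stranded libraries of polyadenylated RNA were read from 1 end, per the labels' protocols. The submitters' processing notes name STAR 2.5.3a, Cufflinks 2.2.1, Cuffdiff 2.2.1 and the hg19 build. The deposited tables give FPKM per locus with a 95% confidence interval for each library, and the authors' deposited table of the comparison gives a log2 fold change and each line's mean FPKM, per the file headers. Each library was assembled on its own, so a gene can lie alone in 1 table and merged in another. Read depth is unknown, since FPKM holds no counts, so no counting interval is given. Of the rows of a table, 47.1% to 51.5% were assembled loci, and 20.1% to 26.2% had no gene name.

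Rows were joined by symbol, and a row counted for a gene that was its only protein-coding name (gene types from GENCODE release 29, no coordinate of which was used). Genes merged with a second protein-coding gene, or with a failed status, in any library were not tested. The IGKC, IGLV1-40 and marker rows were read by name, merged or not. Starts were moved to count from 1. Groups came from the sample titles. Values were tested with limma 3.58.1 in R 4.3.3 (trend, two-sided, LY19Y646F minus LY19WT, Benjamini-Hochberg adjustment over all tested genes, threshold 0.05) on log2(FPKM + 1), with a filter at a mean of 0.5 FPKM. On simulated data of 10705 genes the fit made 121 calls, 13 of them false, and found 41 of 100 2-fold and 67 of 100 4-fold changes. The changes were planted only in genes of a higher mean level than any member, so these rates do not apply to the members. The changed genes were also a far smaller share than was called in the data. Joins and plots used Python 3.11.15, pandas 2.3.3, numpy 2.4.6 and matplotlib 3.10.9, and promoters came from RefSeq on GRCh38.p14.

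Libraries with the same replicate number in the titles deviated together from their group means (correlations of 0.265, 0.100 and 0.133 across genes). The second was over the limit of 0.1 used by the narrowest margin. LY19WT replicate 3 with LY19Y646F replicate 2 gave 0.0922, and LY19WT replicate 2 with LY19Y646F replicate 3 gave 0.0654. The numbers therefore did not clearly match replicates 2 and 3. A fit with the number as a block was run as an alternative and is given where it changes a call. Other alternatives changed the pseudocount, the filter, the treatment of merged rows, the scaling, the weights, the expression thresholds and the libraries.

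The members and gene lists were chosen with earlier results of these data known. Every member is accounted for, those at 1 FPKM or more in any library with all values. Of the related families and partner genes, up to 8 per list with the smallest adjusted p and a mean of at least 1 FPKM in the higher line were named. A gene that this rule also selected is not reported here. Further members and neighbours were named after their values were seen.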

Additional observations from a re-analysis of the deposited data

How the results depend on the processing

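With any of the other settings tried, SIX2 kept its direction and its call (adjusted p from 4.1e-05 to 0.0078), as did DLX1 (0.0019 to 0.042). FOXC1 had an adjusted p from 0.0020 to 0.090 and lost its call with quantile scaling alone, and IRX5 ranged from 0.028 to 0.30 and was called with library weights alone (a difference of 0.38). Members called higher numbered 1, but 3 with no filter, 2 with library weights and 1 to 2 with a library left out. Members called lower numbered 2, but 4 with no filter, 0 with a filter at 2 FPKM (where DLX1 and FOXC1 were not tested), 1 with quantile scaling and 2 to 3 with a library left out. The calls added with a library left out were SOX11 and MSX1, whose means then passed the filter. Library weights raised the count of all genes called from 3561 to 5769. Members expressed in LY19WT alone numbered 0, and 1 from 0.5 FPKM, and those in LY19Y646F alone 1, and 3 from 0.5 FPKM. The fit with the replicate number as a block called 3878 genes and changed no call of a tested member (SIX2 adjusted p = 0.0078, DLX1 0.034, FOXC1 0.040, IRX5 0.092). Its changed calls among related and partner genes are given with those lists, and it changed no other call there. Without a filter, and with each library left out in turn, a setting chosen after seeing the data, SOX11, MSX1, RUNX2 and LHX9 remained called, with adjusted p no higher than 0.021. Where a call changed with scaling or weights, the cause was not tested. Leaving out a library leaves 2 in its line. Depth is unknown, and the Cufflinks intervals of most members under 0.1 FPKM reach 0, as do those of LHX9.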
